A study of Mus musculus with 20 samples.

Results

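The p53 pathway and the machinery of programmed cell death were followed through 39 genes, taken by symbol from the 25208 genes of the count table, in mouse preimplantation embryos given P300 siRNA. The 39 genes fall into 7 groups by role. They are p53 with its inhibitors, p53 targets of cell cycle arrest and stress signalling, DNA repair targets, death promoters of the BCL-2 family, survival proteins of that family, death receptors with other death genes, and the apoptosome with the initiator caspases. Of the 39, 38 had enough counts to be tested, among 16603 genes tested in all. The remaining gene was Bak1, a pore-forming death promoter, which lay between 0 and 0.746 CPM (read counts scaled to library size) and had no count in 6 of the 20 libraries.

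Whole embryos were taken from zygotes cultured in KSOM medium, and RNA libraries were made with the Smart-seq2 protocol. The 20 libraries form 10 groups of 2. P300 siRNA embryos (genotype P300 knockdown) and control embryos (genotype WT) were collected late in the 2-cell stage, at the 4-cell stage, and both early and late in the 8-cell stage. At the late 8-cell stage, 2 further groups received P300 siRNA with I1394G (genotype P300 knockdown I1394G rescue) or with NaCr (genotype P300 knockdown NaCr rescue). The labels do not spell out these agents, which are read here as a substituted form of p300 and as sodium crotonate, and the labels give no dose, strain or number of embryos per library. Nothing says that the libraries of a group came from separate cultures, so the p-values measure only the spread between these libraries, which may be technical.

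As background, p53 is a transcription factor that MDM2 and MDM4 hold in check in unstressed cells. When released it switches on genes that halt the cell cycle, repair DNA or start apoptosis. BH3-only proteins such as NOXA and PUMA then oppose BCL-2 survival proteins, BAX and BAK open the mitochondrial membrane, and APAF1 with caspase-9 starts proteolysis, while FAS and caspase-8 form a separate route from the cell surface. p300 is a lysine acyltransferase that serves p53 as a coactivator. Mouse embryos that lack Mdm2 die around implantation and are rescued by loss of p53.

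Total counts lay between 3.20 M for siRNA late 8-cell replicate 1 and 24.8 M for I1394G replicate 2. Summed CPM were 3035 to 10302 for 7 oocyte-derived markers and 348 to 2173 for 6 markers of 8-cell embryos, against 1.04 to 12.3 for 12 cumulus and granulosa cell markers, 0 to 2.57 for 5 fibroblast markers and 0 to 2.77 for 5 blood cell markers. The siRNA target Ep300 had 22.6 and 29.9 CPM in siRNA libraries, against 86.1 and 83.8 CPM in control libraries, at the late 2-cell stage. At the next stage it had 11.4 and 19.1 CPM in siRNA libraries, against 48.3 and 88.4 CPM in control libraries, and in early 8-cell embryos 11.7 and 16.4 CPM in siRNA libraries, against 41.5 and 82.9 CPM in control libraries. In late 8-cell embryos it had 16.2 and 13.2 CPM in siRNA libraries, against 22.03 and 15.2 CPM in control libraries, and 14.8 and 16.2 CPM in I1394G libraries and 11.6 and 12.6 CPM in NaCr libraries. Ep300 fell at the 4-cell stage by 2.15 ± 0.37 on the log2 scale (SE, adjusted p = 0.00128) and at the early 8-cell stage by 2.15 ± 0.37 (adjusted p = 0.000819), while its differences of -1.69 ± 0.37 at the late 2-cell stage and -0.36 ± 0.37 at the late 8-cell stage did not pass (adjusted p = 0.318 and 0.5). Late 8-cell results below are therefore those of libraries labelled P300 siRNA whose Ep300 counts did not differ detectably from control.

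With every library thinned to the same total count, late 8-cell libraries held counts for 16374.5 ± 643 genes with siRNA, 15086 ± 84.9 with I1394G, 14620 ± 7.07 with NaCr and 14420.5 ± 81.3 in control (SD, n = 2). At the 4-cell stage the numbers were 14316.5 ± 20.5 with siRNA and 13722 ± 116 in control, and at the early 8-cell stage 14570.5 ± 229.8 with siRNA and 13661 ± 434 in control. Summed CPM of the 8-cell markers in late 8-cell libraries were 712 and 667 with siRNA, 1444 and 1468 with I1394G, 1956 and 2173 with NaCr, and 1917 and 1887 in control, and those of the oocyte-derived markers were 3035 and 3633 with siRNA, 7247 and 6877 with I1394G, 8388 and 9006 with NaCr, and 7279 and 6748 in control. The 12 cumulus and granulosa cell markers summed to 3.98 and 9.56 CPM with siRNA, 5.87 and 5.24 with I1394G, 7.20 and 3.98 with NaCr, and 1.39 and 1.43 in control. The 8-cell markers summed to 808 and 784 CPM with siRNA and 1182 and 1475 in control at the 4-cell stage, and to 676 and 728 with siRNA and 1235 and 1207 in control at the early 8-cell stage. The oocyte-derived markers summed to 6091 and 4954 CPM with siRNA and 9754 and 8616 in control at the 4-cell stage, and to 4722 and 4730 with siRNA and 8934 and 10302 in control at the early 8-cell stage. The number of genes detected was higher and both marker sums were lower with siRNA at these 3 stages, and their part in the results was not tested. In the library with the highest oocyte-derived sum, 10302 CPM, Dppa3 alone had 10257 CPM. That sum can therefore follow 1 gene and need not speak for all 7 markers.

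The deposited tables disagreed for 1 library. The count column of control early 8-cell replicate 2 was closest to the other control library of its stage (r = 0.967 across 6906 genes), while its FPKM column was closest to siRNA early 8-cell replicate 2 (r = 0.952). All main tests rest on the counts, where this library resembled its own group. Of the 8 libraries of the 4-cell and early 8-cell stages, 5 were closest to a library of the other stage with the same treatment and the same replicate number. Among them, replicate 2 of siRNA 4-cell and replicate 2 of siRNA early 8-cell correlated at r = 0.993. Both NaCr libraries were closest to I1394G replicate 2. Annotated exons of another gene overlap those of Cdkn1a, Gadd45a, Plk3, Rrm2b, Ddb2, Ei24, Bcl2, Bak1 and Casp9 on the opposite strand and of Bax on the same strand, and processed copies of Trp53 and Mdm4 lie elsewhere. No source used here says that reads were counted by strand, which leaves the values of these genes uncertain.

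p53 binds DNA as a tetramer on paired half-sites, and the half-site consensus was searched in promoter windows of 250 bases before to 50 bases after annotated starts (RefSeq, build GRCm38.p6, whereas the counts were made on mm9). The consensus reads the same on both strands, and its core can hold CATG. Of the 39 genes, 31 matched by symbol, with 41 windows, and 11 of these windows (26.8%) held a half-site, against 2745 of all 32851 windows (8.36%). The same Aen match is counted in overlapping windows. The other 8 genes, Trp53inp1, Zmat3, Xpc, Ddb2, Rrm2b, Pmaip1, Tnfrsf10b and Perp, had no window and were not searched. CATG alone was in 15 of the 41 windows (36.6%), against 61.1% of all windows. A pair of half-sites up to 13 bases apart occurred in 24 of all windows (0.0731%), 1 of them for Cdkn1a. That gene has 2 windows, and the other one held no match. Its matches start 73 and 51 bases before the annotated start of the window with the pair. The stretch right after the second match misses the consensus only at its first base, and so is not marked. The windows of Cdkn1a (chr17:29090729-29091028, plus strand), Ccng1 (chr11:40755237-40755536, minus strand), Mdm2 (chr10:117710709-117711008, minus strand), Ei24 (chr9:36797285-36797584, minus strand), Gadd45a (chr6:67037358-67037657, minus strand), Polk (chr13:96519138-96519437, minus strand) and Trp53 (chr11:69580109-69580408, plus strand) are shown, because these are the 7 members that carry both a match and a change reported below. They run 5′ to 3′ on the gene's strand, and capitals mark the half-site matches.
Cdkn1a: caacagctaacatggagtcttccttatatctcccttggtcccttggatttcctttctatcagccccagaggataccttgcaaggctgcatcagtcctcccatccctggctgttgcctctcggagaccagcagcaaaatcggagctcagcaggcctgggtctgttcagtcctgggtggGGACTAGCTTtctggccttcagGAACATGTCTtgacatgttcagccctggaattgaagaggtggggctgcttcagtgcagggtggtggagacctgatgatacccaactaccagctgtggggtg
Ccng1: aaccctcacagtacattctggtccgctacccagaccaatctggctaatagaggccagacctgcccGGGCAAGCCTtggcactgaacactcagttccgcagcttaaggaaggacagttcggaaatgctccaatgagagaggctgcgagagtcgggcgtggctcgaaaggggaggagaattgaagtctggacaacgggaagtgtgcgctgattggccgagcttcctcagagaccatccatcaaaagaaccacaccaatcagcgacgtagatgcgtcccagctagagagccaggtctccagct
Mdm2: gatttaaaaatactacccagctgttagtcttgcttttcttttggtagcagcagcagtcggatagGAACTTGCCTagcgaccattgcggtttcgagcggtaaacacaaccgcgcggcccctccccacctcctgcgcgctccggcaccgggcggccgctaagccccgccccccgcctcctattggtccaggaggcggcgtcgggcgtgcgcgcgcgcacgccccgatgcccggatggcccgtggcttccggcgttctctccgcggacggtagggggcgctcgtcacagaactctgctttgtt
Ei24: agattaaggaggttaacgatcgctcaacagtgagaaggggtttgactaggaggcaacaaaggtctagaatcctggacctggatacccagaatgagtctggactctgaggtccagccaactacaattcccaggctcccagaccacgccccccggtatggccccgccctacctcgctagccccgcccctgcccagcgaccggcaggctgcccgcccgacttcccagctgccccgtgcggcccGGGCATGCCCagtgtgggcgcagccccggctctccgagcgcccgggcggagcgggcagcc
Gadd45a: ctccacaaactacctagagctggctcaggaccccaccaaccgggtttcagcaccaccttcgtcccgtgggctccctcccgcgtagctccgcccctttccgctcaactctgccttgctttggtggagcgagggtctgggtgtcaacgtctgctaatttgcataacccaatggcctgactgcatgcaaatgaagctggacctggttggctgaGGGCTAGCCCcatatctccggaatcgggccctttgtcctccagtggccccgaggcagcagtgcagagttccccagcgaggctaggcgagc
Polk: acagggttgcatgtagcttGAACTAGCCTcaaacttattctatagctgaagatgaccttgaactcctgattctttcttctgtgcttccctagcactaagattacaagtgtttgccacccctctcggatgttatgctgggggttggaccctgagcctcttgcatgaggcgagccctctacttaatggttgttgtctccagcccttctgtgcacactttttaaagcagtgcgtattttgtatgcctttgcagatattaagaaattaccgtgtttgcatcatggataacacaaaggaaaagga
Trp53: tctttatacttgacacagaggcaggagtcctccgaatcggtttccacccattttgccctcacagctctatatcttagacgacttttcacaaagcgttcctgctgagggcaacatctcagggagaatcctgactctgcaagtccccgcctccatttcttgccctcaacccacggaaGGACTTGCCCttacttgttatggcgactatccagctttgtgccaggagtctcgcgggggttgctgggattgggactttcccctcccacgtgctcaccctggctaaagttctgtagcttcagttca
The single match starts 185 bases before the start in Ccng1, 186 in Mdm2, 10 in Ei24, 40 in Gadd45a, 231 in Polk and 75 in Trp53. Bax, Aen and Sesn1 also held a match. Of the 10 genes with a match, 6 passed the test at the late 8-cell stage, against 9 of the 21 matched genes without one and 28% of all genes tested. Letters alone do not show binding.

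The first comparison asked how the pathway differed between P300 siRNA and control embryos at each stage. The members were chosen with earlier results of these data known, so their counts beside the shares of all genes are a description. At the late 2-cell stage no member passed edgeR's test, against 0.00602% of all genes tested, with medians of -0.004 for the members and -0.04 for all genes on the log2 scale. At an unadjusted p under 0.05 there were 3 members, Btg2, Plk2 and Phlda3, against 4.15% of all genes, and the DESeq2 Wald test called 0. Without the low-count filter 1 member was called (12 of all genes), and with a fit of the late 2-cell libraries alone 5 were, all higher (508 of all genes). At the 4-cell stage 10 of 38 members passed (15% of all genes did), 7 higher (7.77% of all genes) and 3 lower (7.25%), and the medians were 0.22 for the members and 0 for all genes. Early 8-cell embryos had 11 called members (16.5% of all genes), 9 higher (8.21%) and 2 lower (8.3%), with medians of 0.69 and 0.04. In late 8-cell embryos the count was 19 (28% of all genes), of which 18 were higher (13.6%) and 1 was lower (14.3%), with medians of 1.03 and 0.06. With DESeq2 size factors the late 8-cell median of all genes was 0.20, 58.4% of calls were higher against 48.8% with TMM scaling, and 21 members were higher and 1 lower. Limma on log2 FPKM plus 1 had 74.8% of late 8-cell calls among all genes higher, with a median of all genes of 0.22. It called 21 members higher and 1 lower. The near-even split of calls among all genes thus held with TMM scaling and not with FPKM. Both siRNA libraries lay above both controls for 12 members (19.7% of all genes) at the late 2-cell stage, 11 (23.3%) at the 4-cell, 23 (26.9%) at the early 8-cell and 22 (32.8%) at the late 8-cell stage, and below both for 7 (27.5%), 7 (20.7%), 7 (24%) and 4 (33.4%). Control early 8-cell replicate 2 is the library whose tables disagreed. Without siRNA replicate 2, or without control replicate 2, the early 8-cell count was 7, and without control replicate 1 the late 8-cell count was 10. Calls among all genes fell too as single libraries were left out. They lay between 1313 and 2365 at the early 8-cell stage (2741 with all libraries) and between 2215 and 3425 at the late 8-cell stage (4645 with all libraries). The calls that held as each library was left out in turn numbered 4 at the 4-cell stage, 7 at the early 8-cell stage and 10 at the late 8-cell stage. Those that held under every alternative, FPKM included, numbered 2 (Pmaip1 and Btg2), 1 (Pmaip1) and 10. The early 8-cell number depends on FPKM fits that include the FPKM column that disagreed with its counts. Limma on log2 FPKM plus 1 called 1 member and 165 of all genes at that stage, against 11 and 2741 in the main test. A fit of the 4-cell libraries alone called 2 members and 59 of all genes. The share of all genes whose calls held was not taken.

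Of the 39 members, 25 passed at 1 or more stages (40.4% of all genes tested). Btg2, Ccng1, Trp53inp1 and Pmaip1 were higher at the 4-cell, early 8-cell and late 8-cell stages. Phlda3 and Polk were higher at both 8-cell stages, Fas at the 4-cell and late 8-cell stages, and Eda2r at the 4-cell and early 8-cell stages. Mcl1 and Dram1 were lower at the 4-cell and early 8-cell stages. Apaf1 was lower at the 4-cell stage and higher at the late 8-cell stage. The 14 members without a call at any stage were Sesn1, Sesn2, Gdf15, Xpc, Ddb2, Aen, Bbc3, Bax, Bak1, Bid, Tnfrsf10b, Perp, Triap1 and Casp9. The size of the effect differed between stages for 10 members (16.3% of all genes). Averaged over the 4 stages, 21 members passed (30.7% of all genes), 16 higher (15.9%) and 5 lower (14.8%).

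**Figure D1:**
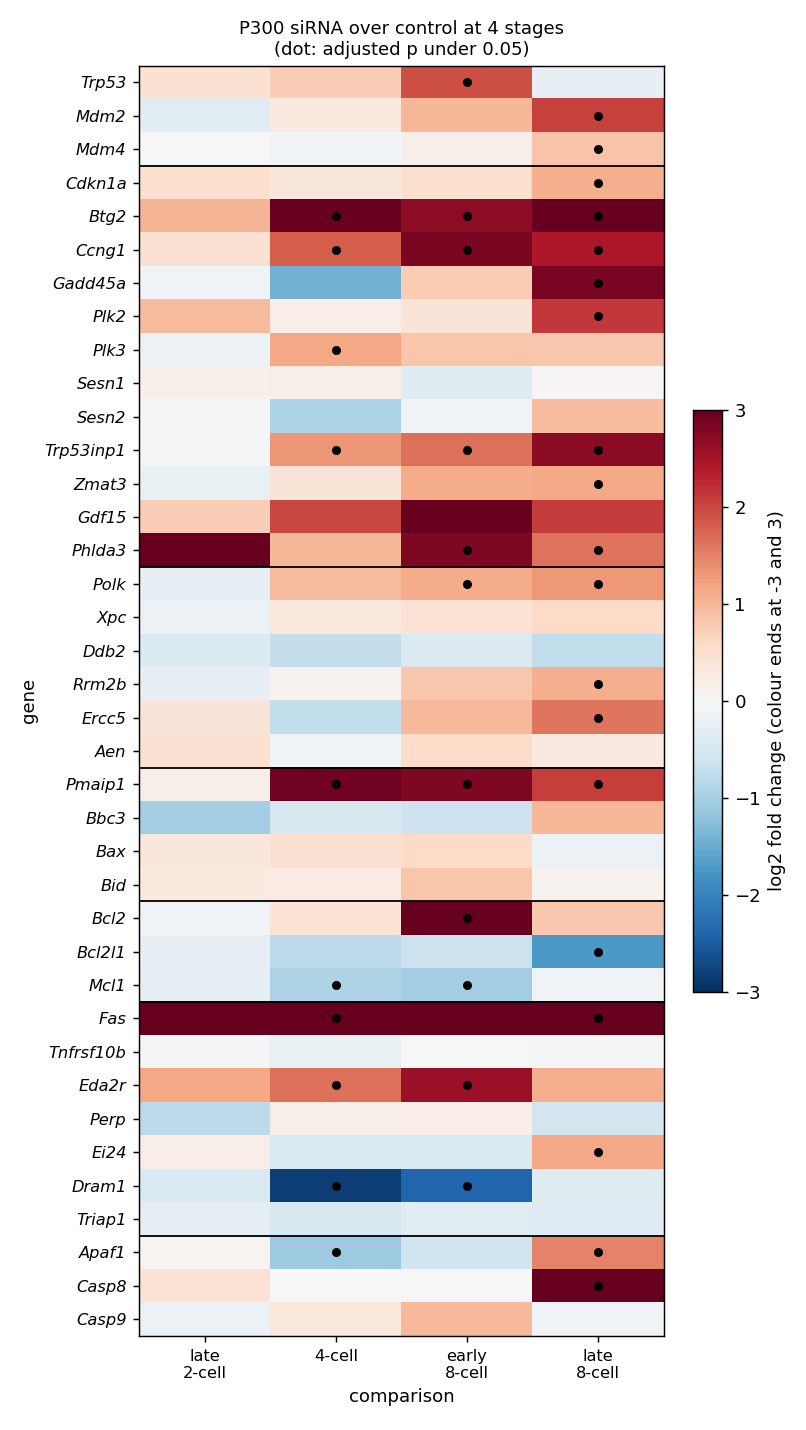
Log2 fold change of P300 siRNA over control (colour) for the 38 tested genes (rows, grouped by role) at 4 stages (columns). A dot marks an adjusted p under 0.05: there are 0, 10, 11 and 19 dots from the late 2-cell to the late 8-cell column. Dark cells without a dot, such as Gdf15 and late 2-cell Phlda3, rest on few counts.

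Trp53, which encodes p53, had 85.7 and 81.1 CPM in siRNA libraries, against 62.9 and 57.5 CPM in control libraries, at the late 2-cell stage. In 4-cell embryos it had 70.4 and 103 CPM in siRNA libraries, against 45.7 and 59.1 CPM in control libraries, and in early 8-cell embryos 140.1 and 98.8 CPM in siRNA libraries, against 41.1 and 21.6 CPM in control libraries. Late 8-cell embryos had 103 and 133 CPM in siRNA libraries, against 131 and 149 CPM in control libraries. The siRNA libraries lay above the control libraries at the first 3 stages and overlapped them at the last. Trp53 was higher by 1.93 ± 0.29 (adjusted p = 0.000247) at the early 8-cell stage, and the difference varied with stage (adjusted p = 0.00868 over the 3 interaction terms). Without control replicate 2 the early 8-cell difference was 1.54 (adjusted p = 0.00644). By the authors' FPKM, Trp53 had 78.4 and 56.2 in siRNA libraries and 19.1 and 60.8 in control libraries of that stage, where the groups overlap. Its differences at the other stages were 0.47 ± 0.28 (adjusted p = 1), 0.73 ± 0.28 (adjusted p = 0.0868) and -0.24 ± 0.28 (adjusted p = 0.543).

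Mdm2, the ubiquitin ligase that turns p53 over and is itself a p53 target, had 122 and 146 CPM in siRNA libraries, against 156 and 179.6 CPM in control libraries, at the late 2-cell stage. It had 114 and 235 CPM in siRNA libraries, against 105 and 181 CPM in control libraries, in 4-cell embryos and 127 and 219 CPM in siRNA libraries, against 78.2 and 96.2 CPM in control libraries, in early 8-cell embryos. The groups overlapped only at the 4-cell stage, with siRNA lower at the late 2-cell stage and higher at both 8-cell stages. At the late 8-cell stage there were 409 and 287 CPM in siRNA libraries, against 72.4 and 94.2 CPM in control libraries. There Mdm2 was higher by 2.06 ± 0.36 (adjusted p = 0.000433), and the effect differed between stages (adjusted p = 0.0139, and 0.065 without control late 8-cell replicate 1). Earlier differences were -0.32 ± 0.34 (adjusted p = 1), 0.29 ± 0.34 (adjusted p = 0.607) and 0.99 ± 0.35 (adjusted p = 0.0586). Mdm4, which blocks the activating part of p53, had 202 and 194 CPM in siRNA libraries, against 108 and 112 CPM in control libraries, at the late 8-cell stage, a rise of 0.85 ± 0.23 (adjusted p = 0.0122) that was lost without control replicate 1 or 2 (adjusted p up to 0.0876). At the 3 earlier stages its differences lay between -0.09 and 0.15.

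Of the 12 arrest and stress-signalling targets, 0, 4, 4 and 8 were higher from the late 2-cell to the late 8-cell stage (0.00602%, 7.77%, 8.21% and 13.6% of all genes) and none was lower, with medians of 0.30, 0.70, 0.98 and 1.86. Cdkn1a, whose product p21 inhibits cyclin-dependent kinases, had 32.98 and 40.9 CPM in siRNA libraries, against 30.3 and 22.03 CPM in control libraries, at the late 2-cell stage. The 4-cell values were 283 and 179 CPM in siRNA libraries, against 256 and 111 CPM in control libraries, and in early 8-cell embryos 254 and 199.7 CPM in siRNA libraries, against 137 and 190.1 CPM in control libraries. The late 8-cell values were 327 and 601 CPM in siRNA libraries, against 232 and 203 CPM in control libraries. Its groups overlapped at the 4-cell stage and stood apart, siRNA above control, at the other 3. The late 8-cell difference of 1.09 ± 0.34 (adjusted p = 0.0229) passed, though not without siRNA replicate 2 or either control library (adjusted p up to 0.307). Those of 0.50 ± 0.35 (adjusted p = 1), 0.34 ± 0.34 (adjusted p = 0.539) and 0.47 ± 0.34 (adjusted p = 0.367) did not pass.

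Btg2, an antiproliferative gene whose product acts in mRNA deadenylation, had 117 and 101 CPM in siRNA libraries, against 50.8 and 56.2 CPM in control libraries, at the late 2-cell stage. At the 4-cell stage it had 53.3 and 69.05 CPM in siRNA libraries, against 8.06 and 7.65 CPM in control libraries, in early 8-cell embryos 32.9 and 72.6 CPM in siRNA libraries, against 9.55 and 6.73 CPM in control libraries. At the late 8-cell stage there were 214 and 265 CPM in siRNA libraries, against 22.9 and 28.7 CPM in control libraries. No siRNA library fell within the range of its controls at any stage. Btg2 rose by 2.96 ± 0.36 (adjusted p = 6.74e-05), 2.69 ± 0.36 (adjusted p = 8.56e-05) and 3.21 ± 0.35 (adjusted p = 8.85e-06) from the 4-cell to the late 8-cell stage, against 1.02 ± 0.33 (adjusted p = 0.986) at the late 2-cell stage. The effect differed between stages (adjusted p = 0.0123), though not without siRNA late 2-cell replicate 2 (0.0778).

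Ccng1, which encodes cyclin G1, had 31.96 and 18.9 CPM in siRNA libraries, against 17.5 and 19.5 CPM in control libraries, at the late 2-cell stage. It had 223 and 279.5 CPM in siRNA libraries, against 102 and 40.7 CPM in control libraries, in 4-cell embryos and 148 and 261 CPM in siRNA libraries, against 25.99 and 31.2 CPM in control libraries, in early 8-cell embryos. In late 8-cell embryos there were 1116 and 767 CPM in siRNA libraries, against 143 and 205 CPM in control libraries. Apart from the late 2-cell stage, both siRNA libraries exceeded both controls. Its rises were 1.82 ± 0.36 (adjusted p = 0.00309), 2.84 ± 0.38 (adjusted p = 8.79e-05) and 2.44 ± 0.36 (adjusted p = 0.000127), after 0.45 ± 0.37 (adjusted p = 1) at the late 2-cell stage. The 4-cell call was lost in a fit of the 4-cell libraries alone. The difference between stages (adjusted p = 0.0169) was lost without siRNA late 2-cell replicate 2 (0.0923).

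Trp53inp1, a p53-induced nuclear protein gene, had 182 and 166 CPM in siRNA libraries, against 169 and 186 CPM in control libraries, at the late 2-cell stage, where the groups overlapped. In 4-cell embryos it had 249 and 305 CPM in siRNA libraries, against 85.8 and 135 CPM in control libraries, and in early 8-cell embryos 161 and 302 CPM in siRNA libraries, against 58.2 and 88.99 CPM in control libraries. In late 8-cell embryos it had 681 and 406 CPM in siRNA libraries, against 73.2 and 92.1 CPM in control libraries. From the 4-cell stage onward all siRNA libraries lay above the controls. The rises were 1.33 ± 0.30 (adjusted p = 0.00716), 1.65 ± 0.30 (adjusted p = 0.00127) and 2.71 ± 0.31 (adjusted p = 1.47e-05), and the effect differed between stages (adjusted p = 0.00326). The 4-cell call was at the threshold without control replicate 1 (adjusted p = 0.0505).

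Phlda3, an inhibitor of AKT signalling, summed to 26 counts in the siRNA libraries and 1 in the control libraries at the late 2-cell stage, a ratio of 32.8 at equal library size with a 95% counting interval of 5.39 to 1346. At the early 8-cell stage it had 39.8 and 47.4 CPM in siRNA libraries, against 2.76 and 9.60 CPM in control libraries, and at the late 8-cell stage 49.6 and 80.2 CPM in siRNA libraries, against 20.4 and 21.9 CPM in control libraries. Both siRNA libraries exceeded both controls at these stages and at the 4-cell stage, which had 21.5 and 45.2 CPM in siRNA libraries, against 20.9 and 12.8 CPM in control libraries. Phlda3 was higher by 2.81 ± 0.48 (adjusted p = 0.00071) and 1.63 ± 0.45 (adjusted p = 0.0122), the second call being lost without siRNA replicate 2 or either control library (adjusted p up to 0.118). The 4-cell difference of 1.002 ± 0.45 (adjusted p = 0.138) did not pass.

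Plk2, a polo-like kinase, had 171 and 107 CPM in siRNA libraries, against 27.4 and 36.6 CPM in control libraries, at the late 8-cell stage and was higher by 2.11 ± 0.41 (adjusted p = 0.00124). Its relative Plk3 had 20.2 and 13.7 CPM in siRNA libraries, against 7.75 and 7.29 CPM in control libraries, at the 4-cell stage, higher by 1.17 ± 0.35 (adjusted p = 0.0312). That call was lost without siRNA replicate 1 or either control library (adjusted p up to 0.185). Zmat3, an RNA-binding zinc finger gene, had 19.1 and 13.4 CPM in siRNA libraries, against 6.67 and 7.72 CPM in control libraries, at the late 8-cell stage, higher by 1.16 ± 0.38 (adjusted p = 0.0313), but not without siRNA replicate 1 or either control library (adjusted p up to 0.186). Gadd45a, a growth arrest gene induced by DNA damage, had 1.86 and 7.68 CPM in siRNA libraries, against 0.359 and 1.05 CPM in control libraries, at that stage. Its rise of 2.84 ± 0.80 (adjusted p = 0.0137) rested on siRNA replicate 2, without which the adjusted p was 0.373, and was also lost without control replicate 1. The stress cytokine gene Gdf15 and the sestrins Sesn1 and Sesn2, which restrain mTORC1, did not pass at any stage, with Sesn1 between -0.37 ± 0.23 and 0.17 ± 0.23. Gdf15 had 2.92 and 3.31 CPM in siRNA libraries, against 0.616 and 0.827 CPM in control libraries, in late 8-cell embryos, where its difference was 2.10 ± 1.05 (adjusted p = 0.145).

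**Figure D2:**
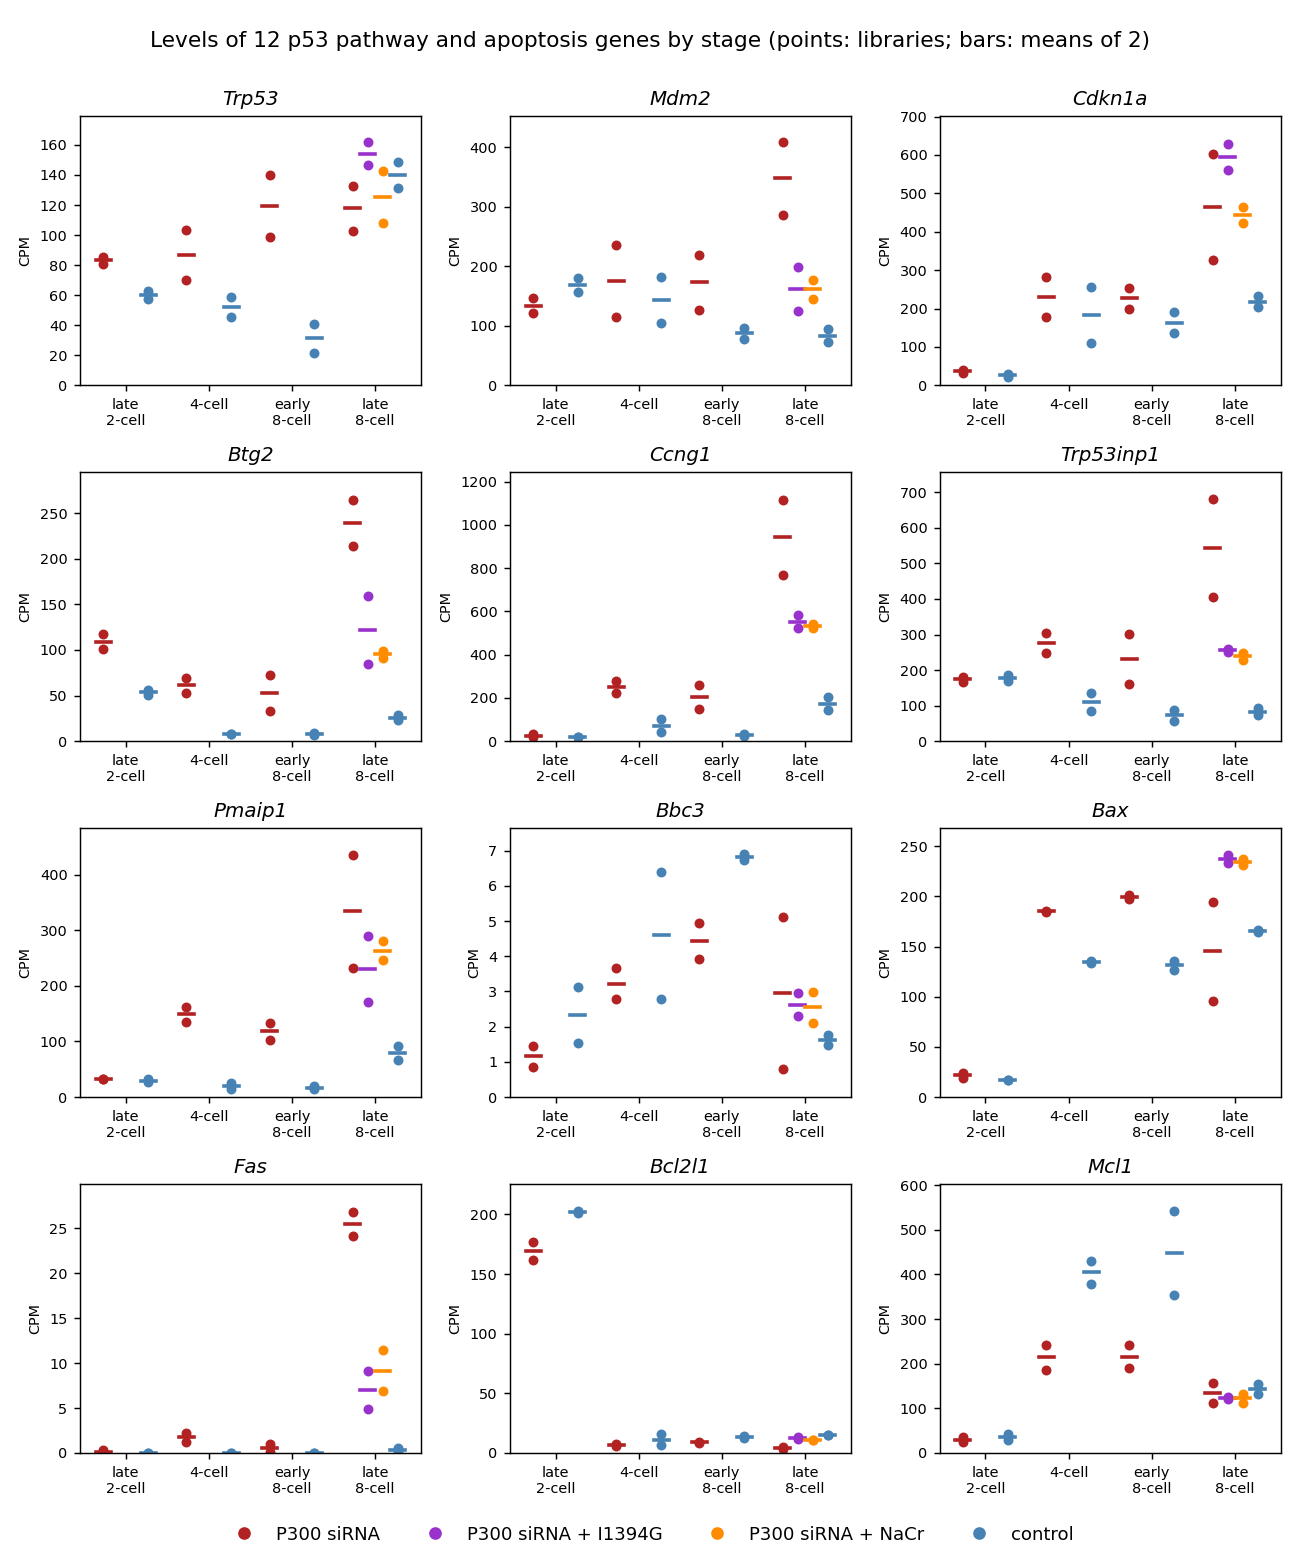
CPM of 12 of the genes (panels, linear axes from 0) by stage, with a point for each library and a bar for the mean of 2, in P300 siRNA, I1394G, NaCr and control embryos. Btg2, Ccng1, Trp53inp1 and Pmaip1 lie above control in both siRNA libraries from the 4-cell stage, Bcl2l1 is low in every group after the late 2-cell stage, and Mcl1 is below control at the 4-cell and early 8-cell stages.

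The 6 DNA repair targets held 0, 0, 1 and 3 calls from the late 2-cell to the late 8-cell stage, all higher (8.21% and 13.6% of all genes at the 8-cell stages). Polk, a translesion DNA polymerase, had 16.4 and 22.7 CPM in siRNA libraries, against 9.94 and 8.07 CPM in control libraries, at the early 8-cell stage and 46.2 and 31.98 CPM in siRNA libraries, against 14.6 and 17.1 CPM in control libraries, at the late 8-cell stage. The siRNA libraries were above the controls at both, by 1.12 ± 0.33 (adjusted p = 0.0282) and 1.29 ± 0.33 (adjusted p = 0.00747). The early call was lost without siRNA replicate 2 or either control library (adjusted p up to 0.18), and the late call without replicate 1 of either group (up to 0.0845). Rrm2b, the p53-inducible ribonucleotide reductase subunit, had 30.3 and 21.4 CPM in siRNA libraries, against 10.3 and 13.8 CPM in control libraries, at the late 8-cell stage, higher by 1.08 ± 0.29 (adjusted p = 0.0102), and was not called without replicate 1 of either group (up to 0.122). Ercc5, an endonuclease of nucleotide excision repair, had 57.9 and 46.5 CPM in siRNA libraries, against 17.4 and 16.99 CPM in control libraries, higher by 1.59 ± 0.44 (adjusted p = 0.013), and was not called without siRNA replicate 1 or either control library (up to 0.0884). The damage recognition genes Xpc and Ddb2 and the nuclease gene Aen did not pass, with late 8-cell differences of 0.59 ± 0.49, -0.73 ± 0.39 and 0.27 ± 0.28.

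Among the 4 tested members that are death promoters of the BCL-2 family, Pmaip1 passed and the others did not. Bak1 was not tested, and Bik, a death promoter that is not a member, is given further below. Pmaip1, which encodes the BH3-only protein NOXA, had 32.98 and 32.9 CPM in siRNA libraries, against 32.3 and 26.3 CPM in control libraries, at the late 2-cell stage. The 4-cell values were 163 and 135 CPM in siRNA libraries, against 25.2 and 14.4 CPM in control libraries, and in early 8-cell embryos 102 and 134 CPM in siRNA libraries, against 19.2 and 14.6 CPM in control libraries. Its late 8-cell values were 434 and 233 CPM in siRNA libraries, against 67.1 and 90.95 CPM in control libraries. The groups stood apart at each stage, with siRNA higher, though by less than 1 CPM between the nearest libraries of the late 2-cell stage. Pmaip1 rose by 2.92 ± 0.34 (adjusted p = 5.35e-05), 2.80 ± 0.34 (adjusted p = 4.57e-05) and 2.07 ± 0.32 (adjusted p = 0.000183) from the 4-cell stage on, against 0.17 ± 0.32 (adjusted p = 1) at the late 2-cell stage, and the effect differed between stages (adjusted p = 0.00263).

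Bbc3, which encodes the BH3-only protein PUMA, did not pass at any stage. It had 1.46 and 0.869 CPM in siRNA libraries, against 1.54 and 3.13 CPM in control libraries, at the late 2-cell stage. At the 4-cell stage it had 2.79 and 3.66 CPM in siRNA libraries, against 6.40 and 2.80 CPM in control libraries, and in early 8-cell embryos 3.91 and 4.93 CPM in siRNA libraries, against 6.89 and 6.73 CPM in control libraries. For late 8-cell embryos they were 0.796 and 5.11 CPM in siRNA libraries, against 1.49 and 1.77 CPM in control libraries. The siRNA libraries lay below control at the late 2-cell and early 8-cell stages and on both sides of a control library at the 4-cell and late 8-cell stages. Its differences were -1.02 ± 0.74 (adjusted p = 1), -0.49 ± 0.67 (adjusted p = 0.677), -0.62 ± 0.67 (adjusted p = 0.57) and 0.99 ± 0.68 (adjusted p = 0.297) in stage order.

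Bax, whose product opens the mitochondrial outer membrane, had 19.4 and 23.8 CPM in siRNA libraries, against 16.8 and 17.4 CPM in control libraries, at the late 2-cell stage. In 4-cell embryos it had 186 and 184 CPM in siRNA libraries, against 134 and 136 CPM in control libraries, and in early 8-cell embryos 201 and 198 CPM in siRNA libraries, against 136 and 127 CPM in control libraries. Late 8-cell embryos had 95.8 and 195 CPM in siRNA libraries, against 165 and 167 CPM in control libraries. Both siRNA libraries were above control at the first 3 stages, and at the last they lay on both sides. None of the differences passed, at 0.34 ± 0.24 (adjusted p = 1), 0.46 ± 0.23 (adjusted p = 0.188), 0.60 ± 0.23 (adjusted p = 0.0819) and -0.18 ± 0.23 (adjusted p = 0.591). Bid, which links death receptors to mitochondria, had differences between 0.12 ± 0.41 and 0.83 ± 0.41, without a call.

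Among the survival genes Bcl2l1 and Mcl1 were lower where they were called and Bcl2 was higher. Bcl2l1, which encodes BCL-XL, had 162 and 177 CPM in siRNA libraries, against 202 and 201 CPM in control libraries, at the late 2-cell stage. It had 5.44 and 7.31 CPM in siRNA libraries, against 15.9 and 6.69 CPM in control libraries, in 4-cell embryos and 8.18 and 9.41 CPM in siRNA libraries, against 14.5 and 12.8 CPM in control libraries, in early 8-cell embryos. The late 8-cell values were 3.72 and 5.15 CPM in siRNA libraries, against 15.4 and 15.2 CPM in control libraries. Apart from the 4-cell stage, both siRNA libraries lay below both controls. Bcl2l1 fell at the late 8-cell stage, with a difference of -1.72 ± 0.33 (adjusted p = 0.000981), and held with each library left out. Its earlier differences were -0.25 ± 0.29 (adjusted p = 1), -0.78 ± 0.32 (adjusted p = 0.105) and -0.64 ± 0.31 (adjusted p = 0.173).

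Mcl1, a short-lived survival protein gene, had 23.5 and 34.8 CPM in siRNA libraries, against 28.4 and 42.6 CPM in control libraries, at the late 2-cell stage. It had 243 and 186 CPM in siRNA libraries, against 431 and 378 CPM in control libraries, in 4-cell embryos and 242 and 190.0 CPM in siRNA libraries, against 354 and 542 CPM in control libraries, in early 8-cell embryos. At the late 8-cell stage there were 156 and 112 CPM in siRNA libraries, against 153 and 132 CPM in control libraries. The siRNA libraries were below control at the middle stages and overlapped control at the first and last. Mcl1 fell at the 4-cell stage, with a difference of -0.92 ± 0.26 (adjusted p = 0.0248), and at the early 8-cell stage, with one of -1.05 ± 0.26 (adjusted p = 0.0099). The 4-cell call was lost without siRNA replicate 2 or control replicate 1 and the early 8-cell call without replicate 2 of either group (adjusted p up to 0.151). The other differences were -0.27 ± 0.27 (adjusted p = 1) and -0.10 ± 0.26 (adjusted p = 0.816). Bcl2 had 0.783 and 1.03 CPM in siRNA libraries, against 0 and 0 CPM in control libraries, at the early 8-cell stage, at least 6.33-fold higher over a floor of 3 counts for the pair of controls. That call (adjusted p = 0.0428) was lost without any one of the 4 libraries (up to 0.185).

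Among the 7 death receptors and other death genes, 3 were called at the 4-cell stage (15% of all genes) and 2 at each 8-cell stage (16.5% and 28%). Fas, the receptor for Fas ligand, had no count in the control libraries of the 4-cell stage and 1.26 and 2.19 CPM in the siRNA libraries, at least 20-fold higher over the same floor (adjusted p = 0.00781, and 0.0661 without control replicate 2). At the early 8-cell stage it had 0.0870 and 1.03 CPM in siRNA libraries, against 0 and 0 CPM in control libraries, at least 3.51-fold higher, which did not pass (adjusted p = 0.0736). Its late 8-cell values were 24.2 and 26.9 CPM in siRNA libraries, against 0.103 and 0.607 CPM in control libraries, and Fas was higher by 6.15 ± 1.0 (adjusted p = 0.000455). Both late 8-cell siRNA libraries were above all libraries of the other 9 groups.

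Eda2r, a receptor for ectodysplasin A2 on the X chromosome, had 134 and 101 CPM in siRNA libraries, against 60.6 and 14.4 CPM in control libraries, at the 4-cell stage and 68.03 and 102 CPM in siRNA libraries, against 14.1 and 14.4 CPM in control libraries, at the early 8-cell stage. For late 8-cell embryos they were 147 and 128 CPM in siRNA libraries, against 61.4 and 68.6 CPM in control libraries. The siRNA libraries exceeded the controls at all 3 stages. Eda2r rose by 1.66 ± 0.42 (adjusted p = 0.0136) and 2.58 ± 0.44 (adjusted p = 0.000699) at the 4-cell and early 8-cell stages, and the late 8-cell difference of 1.08 ± 0.41 (adjusted p = 0.0585) did not pass. The 4-cell call was lost without siRNA replicate 1 or control replicate 2 (adjusted p up to 0.0681). The X-linked Xist RNA had 87.3 and 73.4 CPM in siRNA libraries and 72.8 and 0.367 CPM in control libraries at the 4-cell stage, and 69.8 and 53.3 CPM in siRNA libraries and 276 and 139.9 CPM in control libraries at the late 8-cell stage. Its part in the results was not tested.

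Ei24, an endoplasmic reticulum protein gene induced by p53, had 310.4 and 272 CPM in siRNA libraries, against 133 and 127 CPM in control libraries, at the late 8-cell stage and was higher by 1.16 ± 0.33 (adjusted p = 0.0141). At the 4-cell stage it had 224 and 209.9 CPM in siRNA libraries, against 180.1 and 416 CPM in control libraries, a difference of -0.46 ± 0.33 (adjusted p = 0.361). The late call was lost without siRNA replicate 1 or either control library (adjusted p up to 0.0984). Dram1, a lysosomal gene that links p53 to autophagy, had 2.65 and 2.19 CPM in siRNA libraries, against 14.7 and 19.5 CPM in control libraries, at the 4-cell stage and 4.35 and 2.64 CPM in siRNA libraries, against 13.6 and 23.1 CPM in control libraries, at the early 8-cell stage. All siRNA libraries were below all controls at both, with differences of -2.83 ± 0.55 (adjusted p = 0.00297) and -2.38 ± 0.54 (adjusted p = 0.00558), the second being lost without replicate 2 of either group (up to 0.0622). In late 8-cell embryos Dram1 had 5.84 and 2.53 CPM in siRNA libraries, against 6.67 and 3.42 CPM in control libraries, without a call. The TRAIL receptor gene Tnfrsf10b, the membrane protein gene Perp and the p53-regulated survival gene Triap1 did not pass, with late 8-cell differences of -0.03 ± 0.29, -0.55 ± 0.52 and -0.38 ± 0.23.

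Apaf1, the scaffold of the apoptosome, had 29.8 and 49.97 CPM in siRNA libraries, against 71.4 and 97.8 CPM in control libraries, at the 4-cell stage. It had 38.6 and 50.6 CPM in siRNA libraries, against 51.4 and 84.4 CPM in control libraries, in early 8-cell embryos and 53.1 and 36.8 CPM in siRNA libraries, against 16.4 and 15.4 CPM in control libraries, in late 8-cell embryos. The siRNA libraries were thus all below control at the first 2 of these stages and above it at the last. The differences were -1.08 ± 0.31 (adjusted p = 0.0265), -0.61 ± 0.31 (adjusted p = 0.188) and 1.49 ± 0.32 (adjusted p = 0.00232), and the effect differed between stages (adjusted p = 0.00459). The 4-cell call was lost without siRNA replicate 1 or control replicate 2 (adjusted p up to 0.199). Casp8, the initiator caspase of death receptors, had 2.48 and 1.22 CPM in siRNA libraries, against 1.84 and 0.835 CPM in control libraries, at the late 2-cell stage and no count in any library of the 4-cell and early 8-cell stages. Late 8-cell siRNA libraries had 4.51 and 8.62 CPM and the controls no count, at least 101-fold higher over a floor of 3 counts (adjusted p = 0.000492). Casp9, the initiator caspase of the apoptosome, did not pass, with late 8-cell values of 6.64 and 4.78 CPM in siRNA libraries, against 5.80 and 6.23 CPM in control libraries.

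The second comparison asked how the members stood in late 8-cell embryos given I1394G or NaCr beside the siRNA. Both were set against the same siRNA libraries and against the same controls as above, so these comparisons are not independent of each other. With I1394G, 6 of 38 members differed from siRNA alone (10.8% of all genes), 1 higher (6.19%) and 5 lower (4.58%), with medians of -0.32 for the members and -0.07 for all genes. With NaCr, 7 differed (15.3% of all genes), 1 higher (8.77%) and 6 lower (6.57%), with medians of -0.35 and -0.13. DESeq2 size factors gave medians of all genes of -0.17 with I1394G and -0.22 with NaCr, with 45.3% of calls higher with I1394G against 57.5% with TMM scaling. Limma on log2 FPKM plus 1 had 15.3% of calls among all genes higher with either treatment. It called 7 members lower with I1394G, 11 lower with NaCr, and 0 higher with either. The I1394G count was 3 without siRNA replicate 1 and 2 without either I1394G library. The NaCr count was 4 without siRNA replicate 1, 3 without NaCr replicate 1 and 0 without NaCr replicate 2. None of these calls held with each library left out in turn. Calls among all genes also moved, to between 449 and 1948 with I1394G (1789 with all libraries) and between 912 and 2282 with NaCr (2546 with all libraries).

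Mdm2 had 125 and 199 CPM in I1394G libraries and 177 and 146 CPM in NaCr libraries, against 409 and 287 CPM in siRNA libraries and 72.4 and 94.2 CPM in control libraries. It was lower than with siRNA alone by both, at -1.10 ± 0.35 (adjusted p = 0.0487) with I1394G and -1.11 ± 0.35 (adjusted p = 0.0376) with NaCr, and differed from control by 0.96 ± 0.34 (adjusted p = 0.148) and 0.95 ± 0.35 (adjusted p = 0.203). Both treated groups lay between the siRNA libraries above and the controls below. Mdm4 had 77.8 and 95.04 CPM in I1394G libraries and 98.1 and 74.6 CPM in NaCr libraries, against 202 and 194 CPM in siRNA libraries and 108 and 112 CPM in control libraries. All 4 treated libraries were below every siRNA and control library, with -1.20 ± 0.24 (adjusted p = 0.00417) and -1.20 ± 0.24 (adjusted p = 0.00257) against siRNA. Without I1394G replicate 1 the first was not called (adjusted p = 0.0711), nor the second without NaCr replicate 2 (0.055). The Mdm2 calls were lost without siRNA replicate 1 or any one treated library (adjusted p up to 0.337).

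Trp53inp1 had 252 and 259 CPM in I1394G libraries and 249 and 229.6 CPM in NaCr libraries, against 681 and 406 CPM in siRNA libraries and 73.2 and 92.1 CPM in control libraries. It was lower than with siRNA alone by 1.09 ± 0.30 with I1394G (adjusted p = 0.0258) and 1.18 ± 0.30 with NaCr (0.0126), and higher than control by 1.63 ± 0.30 (adjusted p = 0.0066) and 1.53 ± 0.30 (adjusted p = 0.0143). The 4 treated libraries lay apart from both. Btg2 had 84.5 and 159.5 CPM in I1394G libraries and 99.2 and 91.04 CPM in NaCr libraries, against 214 and 265 CPM in siRNA libraries and 22.9 and 28.7 CPM in control libraries, a difference from siRNA of -0.97 ± 0.32 (adjusted p = 0.0601) with I1394G and -1.33 ± 0.33 (adjusted p = 0.0103) with NaCr. It stayed above control by 2.24 ± 0.34 (adjusted p = 0.00147) and 1.88 ± 0.33 (adjusted p = 0.00701). Without siRNA replicate 1 or any treated library the Trp53inp1 calls against siRNA were lost (up to 0.267), and the Btg2 call with NaCr was lost without siRNA replicate 2 or either NaCr library (up to 0.0972).

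Rrm2b had 10.2 and 7.92 CPM in I1394G libraries and 12.6 and 6.59 CPM in NaCr libraries, against 30.3 and 21.4 CPM in siRNA libraries and 10.3 and 13.8 CPM in control libraries. The treated libraries were below siRNA, at -1.49 ± 0.29 (adjusted p = 0.00403) and -1.38 ± 0.30 (adjusted p = 0.00431), and those calls were lost without I1394G replicate 2 (0.0705) and NaCr replicate 2 (0.0867). Gadd45a had 0.612 and 0.792 CPM in I1394G libraries and 1.25 and 0.124 CPM in NaCr libraries, against 1.86 and 7.68 CPM in siRNA libraries and 0.359 and 1.05 CPM in control libraries. Its differences from siRNA of -2.83 ± 0.79 (adjusted p = 0.0288) and -2.72 ± 0.81 (adjusted p = 0.03) were lost without siRNA replicate 2 and without other single libraries (adjusted p up to 0.487), and its levels in the treated and control libraries were at most 1.25 CPM. Bcl2l1 had 12.1 and 13.8 CPM in I1394G libraries and 10.5 and 11.1 CPM in NaCr libraries, against 3.72 and 5.15 CPM in siRNA libraries and 15.4 and 15.2 CPM in control libraries. All 4 treated libraries were above the siRNA libraries and below the controls. It was the member that rose against siRNA, by 1.48 ± 0.33 (adjusted p = 0.00805) and 1.21 ± 0.33 (adjusted p = 0.0189), calls that were lost without siRNA replicate 1, without I1394G replicate 2 and without either NaCr library (up to 0.099).

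Pmaip1 had 170.1 and 290.2 CPM in I1394G libraries and 246 and 280.1 CPM in NaCr libraries, against 434 and 233 CPM in siRNA libraries and 67.1 and 90.95 CPM in control libraries. The differences from siRNA of -0.53 ± 0.31 (adjusted p = 0.291) and -0.34 ± 0.31 (adjusted p = 0.489) did not pass, while those from control of 1.54 ± 0.32 (adjusted p = 0.0125) and 1.73 ± 0.32 (adjusted p = 0.00956) did. Ccng1 had 522 and 582 CPM in I1394G libraries and 540.3 and 521 CPM in NaCr libraries, against 1116 and 767 CPM in siRNA libraries and 143 and 205 CPM in control libraries, with -0.77 ± 0.35 (adjusted p = 0.16) and -0.83 ± 0.35 (adjusted p = 0.115) against siRNA. Each treated library was above the controls and below the siRNA libraries, and Ccng1 was higher than control by 1.66 ± 0.35 (adjusted p = 0.0148) and 1.61 ± 0.35 (adjusted p = 0.026). Cdkn1a had 629.5 and 561 CPM in I1394G libraries and 424 and 465 CPM in NaCr libraries, against 327 and 601 CPM in siRNA libraries and 232 and 203 CPM in control libraries, with 0.36 ± 0.33 (adjusted p = 0.535) and -0.07 ± 0.33 (adjusted p = 0.933) against siRNA. It differed from control by 1.45 ± 0.34 (adjusted p = 0.0262) with I1394G and by 1.03 ± 0.34 (adjusted p = 0.148), without a call, with NaCr.

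Trp53 itself had 147 and 162 CPM in I1394G libraries and 108 and 143 CPM in NaCr libraries, against 103 and 133 CPM in siRNA libraries and 131 and 149 CPM in control libraries, with differences from siRNA of 0.38 ± 0.28 (adjusted p = 0.403) and 0.08 ± 0.28 (adjusted p = 0.883). The treated and control ranges overlapped. Bax had 241 and 234 CPM in I1394G libraries and 231 and 237 CPM in NaCr libraries, against 95.8 and 195 CPM in siRNA libraries and 165 and 167 CPM in control libraries, and Bbc3 had 2.96 and 2.29 CPM in I1394G libraries and 2.11 and 2.98 CPM in NaCr libraries, against 0.796 and 5.11 CPM in siRNA libraries and 1.49 and 1.77 CPM in control libraries. The treated Bax libraries were above every siRNA and control library, but the differences from siRNA, 0.70 ± 0.23 (adjusted p = 0.0598) with I1394G and 0.68 ± 0.23 (adjusted p = 0.0555) with NaCr, did not pass. Those from control, 0.52 ± 0.23 (adjusted p = 0.256) and 0.50 ± 0.23 (adjusted p = 0.358), did not pass either. For Bbc3 the differences from siRNA were -0.30 ± 0.67 and -0.35 ± 0.68. Mcl1 had 120.1 and 125 CPM in I1394G libraries and 131 and 113 CPM in NaCr libraries, against 156 and 112 CPM in siRNA libraries and 153 and 132 CPM in control libraries, with differences from siRNA of -0.13 ± 0.26 and -0.13 ± 0.26, and none passed.

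Against control, 8 members were higher with I1394G (3.17% of all genes were called, 1.99% higher) and 7 with NaCr (1.57%, 1.07% higher), and no member was lower (1.18% and 0.5% of all genes). The medians of the members were 0.55 with either treatment, against -0.01 and -0.05 for all genes. Btg2, Trp53inp1, Pmaip1, Ccng1, Fas, Ei24 and Casp8 were called with both, and Cdkn1a with I1394G. Fas had 4.95 and 9.16 CPM in I1394G libraries and 6.87 and 11.4 CPM in NaCr libraries, against 0.103 and 0.607 CPM in control libraries, higher by 4.30 ± 0.94 (adjusted p = 0.023) and 4.66 ± 0.95 (adjusted p = 0.0214). Ei24 had 398 and 392 CPM in I1394G libraries and 317 and 587 CPM in NaCr libraries, against 133 and 127 CPM in control libraries, higher by 1.60 ± 0.33 (adjusted p = 0.0126) and 1.80 ± 0.33 (adjusted p = 0.00982). Casp8 had 2.50 and 1.01 CPM in I1394G libraries and 1.25 and 1.12 CPM in NaCr libraries and no count in the controls, at least 21.3-fold and 15.1-fold higher. A fit of only the libraries compared called 20 members with I1394G (4031 of all genes) and 19 with NaCr (2263 of all genes). All of those members were higher. In the main fit the counts depended on single libraries. The I1394G count was 3 without either I1394G library, 0 without control replicate 1 and 1 without control replicate 2. With NaCr the count was 3 without NaCr replicate 1, 1 without NaCr replicate 2 and 0 without either control library. No single call against control held with each library left out. Calls among all genes fell as well, to between 56 and 162 with I1394G (527 with all libraries) and between 12 and 113 with NaCr (261 with all libraries).

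Of the 19 members called between siRNA and control at this stage, the I1394G mean lay between the siRNA and control means for 14 and the NaCr mean for 15. The I1394G mean of Cdkn1a and Ei24 was above that of siRNA, as was the NaCr mean of Ei24, and both treated means of Mdm4, Gadd45a and Rrm2b were at or below control. These positions share the siRNA and control libraries with the calls and are given as a description. Between I1394G and NaCr no member differed by edgeR's test, and 0 of all genes did (0%). At an unadjusted p under 0.05 there were 0 members and 1.95% of all genes, and the DESeq2 Wald test called 0 members. The member differences between the treated groups lay between -1.04 ± 1.38 for Bcl2 and 0.55 ± 0.88 for Casp8.

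**Figure D3:**
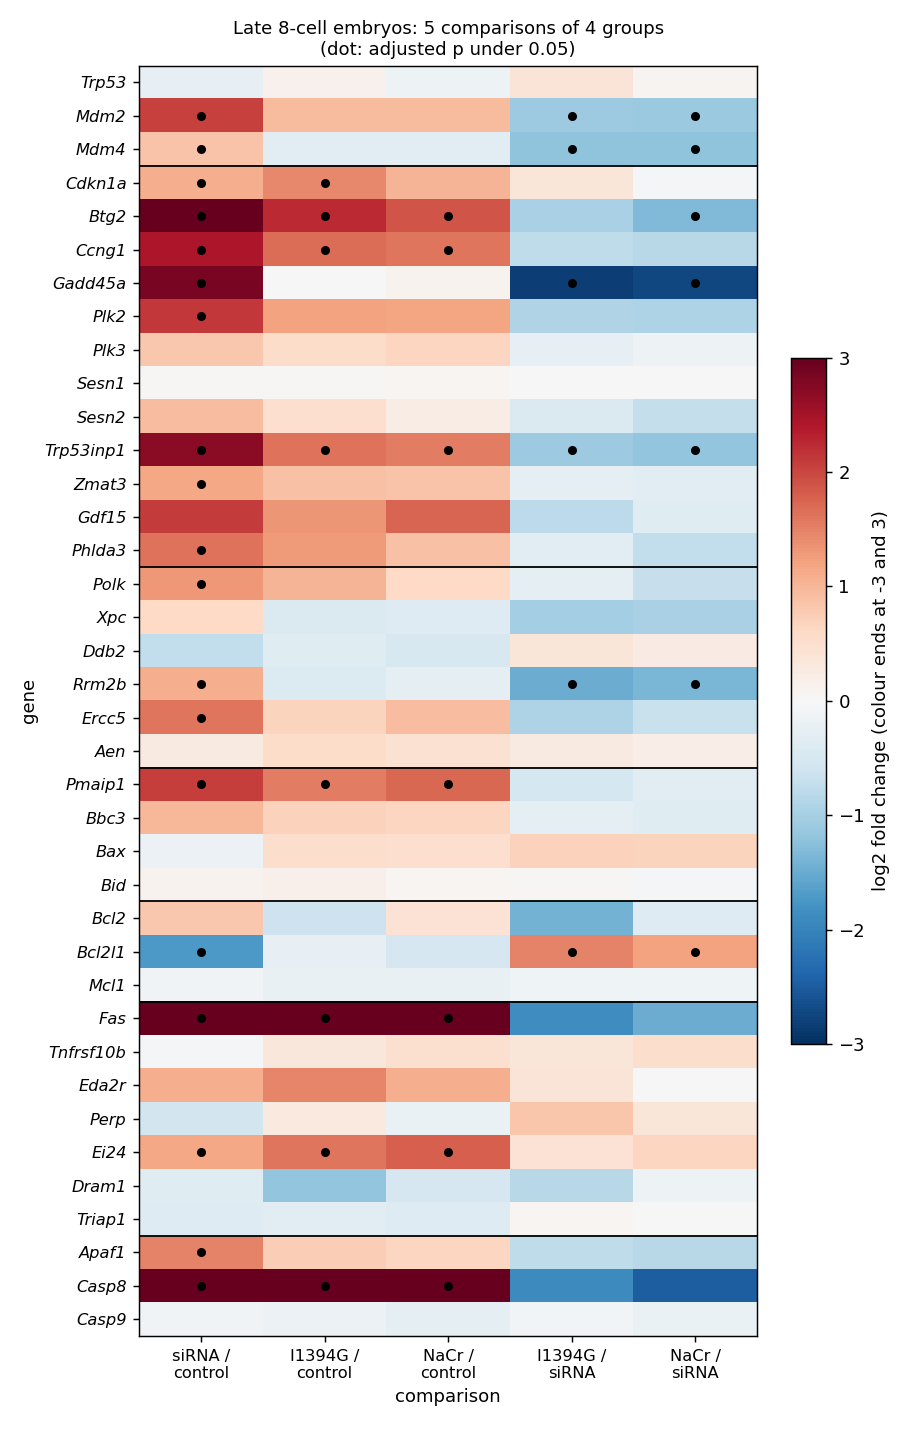
Log2 fold changes (colour) of the 38 tested genes in late 8-cell embryos for 5 comparisons of 4 groups (columns); dots mark an adjusted p under 0.05. The columns share libraries: control enters the first 3 and siRNA the first and the last 2. Btg2, Ccng1, Trp53inp1, Pmaip1, Fas, Ei24 and Casp8 carry a dot in each of the first 3 columns.

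The third comparison followed the members through control development. From the late 2-cell to the 4-cell stage 23 of 38 members differed (61.2% of all genes), 14 higher (27%) and 9 lower (34.2%) at the later stage. From the 4-cell to the early 8-cell stage edgeR called 0 members, either higher (0.62% of all genes) or lower (0.506%), with 1.13% of all genes called. At an unadjusted p under 0.05 there were 8, all lower at the later stage, against 13.1% of all genes, and the DESeq2 Wald test called 2. The count was 4 without control 4-cell replicate 1, 2 without 4-cell replicate 2 and 1 without early 8-cell replicate 2. From the early to the late 8-cell stage 14 differed (26.2%), 8 higher (15%) and 6 lower (11.2%). Mdm4 had 3644 and 3977 CPM in late 2-cell, 446 and 466 CPM in 4-cell, 379.8 and 232 CPM in early 8-cell and 108 and 112 CPM in late 8-cell controls. Its differences between successive stages were -3.06 ± 0.25 (adjusted p = 8.34e-09), -0.58 ± 0.23 (adjusted p = 0.287) and -1.47 ± 0.24 (adjusted p = 0.000247) and the first and last passed. Bcl2l1 differed by -4.18 ± 0.33 (adjusted p = 6.32e-09) between 4-cell and late 2-cell controls, and Rrm2b by -3.43 ± 0.30 (adjusted p = 2.03e-08). Mcl1 and Bax went the other way at that step, by 3.51 ± 0.29 (adjusted p = 8.23e-09) and 2.98 ± 0.25 (adjusted p = 1.43e-08), as did Cdkn1a by 2.80 ± 0.36 (adjusted p = 2.86e-06). Casp8 was at least 14.9-fold lower at the 4-cell stage, where no control library had a count.

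At the last step of control development Trp53 rose by 2.16 ± 0.29 (adjusted p = 6.73e-05), Pmaip1 by 2.22 ± 0.33 (adjusted p = 0.000151), Ccng1 by 2.60 ± 0.37 (adjusted p = 0.000108) and Eda2r by 2.19 ± 0.43 (adjusted p = 0.00137). Mcl1 and Apaf1 fell, by 1.65 ± 0.26 (adjusted p = 0.000245) and 2.10 ± 0.32 (adjusted p = 0.000172). Without control early 8-cell replicate 2 the Trp53 difference was 1.76 (adjusted p = 0.00172) and the number of called members 11. Bbc3 fell by 2.06 ± 0.69 (adjusted p = 0.0347), a call lost without any one of the 4 libraries (up to 0.178).

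Across all 10 groups, 14 of the 39 members had their highest mean CPM in late 8-cell siRNA embryos (17 by the authors' FPKM), and no other group was highest for more than 5. The share of all genes that were highest in late 8-cell siRNA embryos was not taken, so this count describes the members only. At equal depth late 8-cell siRNA libraries also held counts for more genes, 16374.5 ± 643, than late 8-cell controls, 14420.5 ± 81.3 (SD, n = 2). In late 8-cell siRNA embryos the members with the highest FPKM, a unit per transcript length, were Ccng1 at 321 ± 78.1, Cdkn1a at 273 ± 119, Bax at 200.3 ± 99.8, Pmaip1 at 149 ± 61.1 and Ei24 at 146 ± 10.6. In late 8-cell controls they were Bax at 163 ± 1.01, Triap1 at 117 ± 4.15, Cdkn1a at 91.6 ± 8.85, Trp53 at 64.2 ± 5.48 and Perp at 64.1 ± 8.73 (SD, n = 2). Members under 1 FPKM numbered 2 in late 8-cell siRNA embryos (Bak1 and Bcl2) and 8 in late 8-cell controls. The share of all genes under 1 FPKM was not taken. FPKM were used as deposited, without TMM scaling, and serve here to rank genes within a group. Between groups they can differ from CPM. Bax was higher with siRNA by FPKM but averaged 145 ± 69.9 CPM with siRNA and 166 ± 1.49 CPM in control. In such whole-embryo libraries fewer expressing cells and less RNA per cell cannot be told apart.

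**Figure D4:**
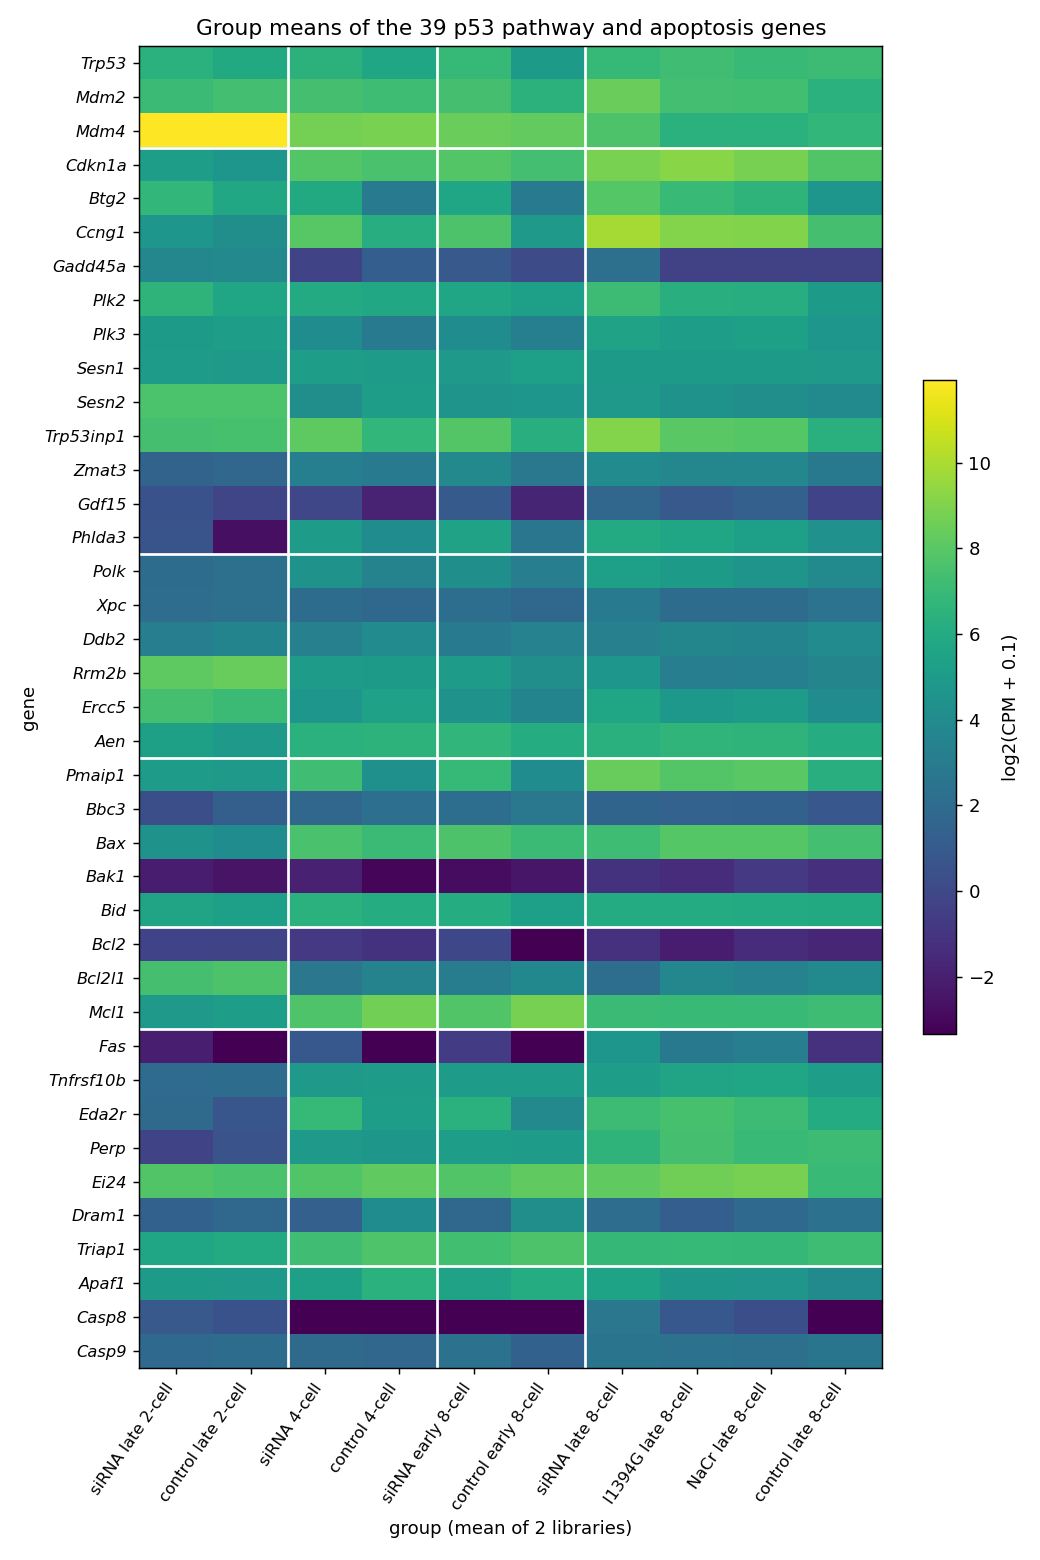
Mean of 2 libraries for each of the 39 genes (rows, grouped by role) in each of the 10 groups (columns, ordered by stage), as log2 of CPM plus 0.1. Colours compare groups along a row, not genes with each other, since CPM are not scaled to transcript length. Mdm4 is brightest in the late 2-cell columns, and Fas is darkest in the controls of the first 3 stages.

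Other genes of the pathway were taken from lists written with earlier results of these data known. Of 26 tested p53 regulators and partners, 0, 5, 4 and 11 were called between siRNA and control from the late 2-cell to the late 8-cell stage, with 1, 0 and 4 higher and 4, 4 and 7 lower at the last 3. Of all genes 15%, 16.5% and 28% were called at these 3 stages. Usp10, a deubiquitinase of p53, averaged 151 ± 5.60 CPM in siRNA libraries and 298 ± 76.01 CPM in control libraries (SD, n = 2) at the 4-cell stage (-0.98 ± 0.21, log2 fold change ± SE), 156 ± 2.73 CPM in siRNA libraries and 285 ± 18.4 CPM in control libraries at the early 8-cell stage (-0.87 ± 0.21) and 88.01 ± 12.95 CPM in siRNA libraries and 202 ± 22.8 CPM in control libraries at the late 8-cell stage (-1.19 ± 0.21). It was lower at all 3 stages. Trim24, a ubiquitin ligase for p53, averaged 34.95 ± 5.99 CPM in siRNA libraries and 89.4 ± 11.5 CPM in control libraries in 4-cell and 26.2 ± 0.0752 CPM in siRNA libraries and 97.3 ± 51.9 CPM in control libraries in early 8-cell embryos. In late 8-cell embryos Herc2 averaged 43.02 ± 8.62 CPM in siRNA libraries and 13.98 ± 1.21 CPM in control libraries, the checkpoint kinase gene Chek1 64.5 ± 19.2 CPM in siRNA libraries and 141 ± 3.47 CPM in control libraries and the ribosomal protein gene Rpl5, whose product can bind MDM2, 1159 ± 60.9 CPM in siRNA libraries and 2733 ± 25.5 CPM in control libraries. Herc2 was higher and Chek1 and Rpl5 were lower. Against siRNA alone, 5 of the 26 were called with I1394G (3 higher, 2 lower; 10.8% of all genes) and 11 with NaCr (5 higher, 6 lower; 15.3% of all genes), among them Usp10 and Rpl5 higher and Herc2 and Ppm1d lower with both. Against control, 1 was lower with I1394G (Trim24; 3.17% of all genes were called) and edgeR called 0 with NaCr (1.57% of all genes).

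Of 34 other tested p53 targets, 0, 7, 10 and 14 were called in stage order, with 6, 7 and 11 higher and 1, 3 and 3 lower at the last 3 stages (7.77%, 8.21% and 13.6% of all genes higher, 7.25%, 8.3% and 14.3% lower), and medians of 0.10, 0.47, 0.58 and 0.61. Tob1, an antiproliferative relative of Btg2, averaged 33.1 ± 2.32 CPM in siRNA libraries and 9.30 ± 0.578 CPM in control libraries at the 4-cell stage (1.83 ± 0.27) and 38.00 ± 2.68 CPM in siRNA libraries and 10.5 ± 0.0435 CPM in control libraries at the late 8-cell stage (1.86 ± 0.26). Abhd4 averaged 20.1 ± 5.87 CPM in siRNA libraries and 2.22 ± 0.916 CPM in control libraries at the early 8-cell stage, higher by 3.16 ± 0.39. Against that direction, Tigar, which lowers glycolytic flux, averaged 422 ± 73.5 CPM in siRNA libraries and 812 ± 151 CPM in control libraries at the 4-cell stage and 369 ± 44.02 CPM in siRNA libraries and 819 ± 59.6 CPM in control libraries at the late 8-cell stage, and the 14-3-3 sigma gene Sfn averaged 239.9 ± 39.3 CPM in siRNA libraries and 1129 ± 25.4 CPM in control libraries at the late 8-cell stage. Both were lower with siRNA. With I1394G, 4 of the 34 differed from siRNA (2 higher, 2 lower; 10.8% of all genes), and with NaCr 4 (2 and 2; 15.3% of all genes), with Tigar and Sfn higher and Tob1 lower in both. Against control 4 were higher with I1394G (1.99% of all genes) and edgeR called 0 with NaCr (1.57% of all genes).

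Of 39 other tested apoptosis genes, 0, 8, 10 and 16 were called in stage order, most of them lower: 1, 2 and 4 were higher (7.77%, 8.21% and 13.6% of all genes) and 7, 8 and 12 lower (7.25%, 8.3% and 14.3%) at the last 3 stages. Casp6, an executioner caspase, averaged 33.6 ± 5.68 CPM in siRNA libraries and 93.1 ± 40.1 CPM in control libraries at the 4-cell stage, 30.6 ± 5.94 CPM in siRNA libraries and 118 ± 4.08 CPM in control libraries at the early 8-cell stage and 23.7 ± 0.289 CPM in siRNA libraries and 106 ± 8.51 CPM in control libraries at the late 8-cell stage, and was lower at each. Birc3, an inhibitor of apoptosis gene, averaged 6.40 ± 2.59 CPM in siRNA libraries and 30.3 ± 21.9 CPM in control libraries in 4-cell and 5.21 ± 0.386 CPM in siRNA libraries and 41.8 ± 3.14 CPM in control libraries in early 8-cell embryos, and was also lower. Bik, a BH3-only death promoter, was higher, with 24.2 ± 6.86 CPM in siRNA libraries and 0.272 ± 0.239 CPM in control libraries at the late 8-cell stage. Against control it was still higher with I1394G (8.78 ± 2.89 CPM in I1394G libraries and 0.272 ± 0.239 CPM in control libraries) and with NaCr (7.95 ± 4.73 CPM in NaCr libraries and 0.272 ± 0.239 CPM in control libraries). Against siRNA, 5 of the 39 were called with I1394G (10.8% of all genes; 3 higher, 2 lower) and 8 with NaCr (15.3%; 6 higher, 2 lower), including Casp6 higher and the BH3-only gene Bcl2l11 lower with both, and against control 2 were called with I1394G (3.17%) and 1 with NaCr (1.57%).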

How the data were processed

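Both tables list 25208 genes. The authors deposited read counts that had not been normalised, used for all main tests. The FPKM table was deposited by the authors and used here for levels between genes and as an alternative. Per the submitters' processing notes, the build was mm9, and Cufflinks 2.2, HISAT2 2.2.1, cutadapt 4.1 and bcl2fastq 2.20.0.422 were used. Which tool counted, and with what strand setting, is not given in the sources used here.

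The tests used edgeR 4.0.16 (R 4.3.3): the default low-count filter (16603 genes kept), TMM scaling, 1 coefficient per group over all 20 libraries (10 residual and 7.98 prior degrees of freedom), two-sided quasi-likelihood F tests and Benjamini-Hochberg adjustment over all genes tested, 0.05 being the threshold of a call. CPM use the scaled library sizes, differences are log2 fold changes ± SE, and the SE is the size of the fold change over the square root of F. Libraries of a group were not copies (r of log2 CPM 0.964 to 0.994). For 19 libraries counts and FPKM correlated at 0.996 or above, and for control early 8-cell replicate 2 at 0.890, so that FPKM column is doubtful. The script was tested on simulated data.

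The members, lists and naming rule were chosen with earlier results of these data known. The rule named 10 members in every comparison, any member called between siRNA and control or between a treated group and siRNA, and up to 4 genes of each other list per comparison. Alternatives were DESeq2 1.42.0 size factors and Wald test, no low-count filter, limma 3.58.1 on log2 FPKM with a pseudocount of 1 or 0.1, only the libraries compared, a replicate block and leaving out each library. Intervals and floors cover counting error only.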

Additional observations from a re-analysis of the deposited data

Results flagged for a closer look

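For 10 members the effect of P300 siRNA differed between the 4 stages in the joint edgeR test of 3 interaction contrasts (16.3% of all genes tested did). The adjusted p was 0.00263 for Pmaip1, 0.00326 for Trp53inp1, 0.00459 for Apaf1, 0.00868 for Trp53, 0.0123 for Btg2, 0.0139 for Mdm2, 0.0169 for Ccng1, 0.0202 for Casp8, 0.0433 for Dram1 and 0.048 for Ei24. Pmaip1, Btg2 and Ccng1 had uncalled differences at the late 2-cell stage (0.17 ± 0.32, 1.02 ± 0.33 and 0.45 ± 0.37) and rises of at least 1.82 at each later stage. Trp53inp1 and Mdm2 had their highest values at the late 8-cell stage, at 2.71 ± 0.31 and 2.06 ± 0.36. Trp53 stood out at the early 8-cell stage (1.93 ± 0.29) and was at -0.24 ± 0.28 at the late 8-cell stage. At the 4-cell and late 8-cell stages Apaf1 was at -1.08 ± 0.31 and 1.49 ± 0.32, Ei24 at -0.46 ± 0.33 and 1.16 ± 0.33, and Dram1 at -2.83 ± 0.55 and -0.36 ± 0.54. The Casp8 value rests on groups without a count. Ep300 itself was below control by 1.69 ± 0.37, 2.15 ± 0.37 and 2.15 ± 0.37 at the first 3 stages and differed by -0.36 ± 0.37 at the late 8-cell stage, where most members were called. Leaving out each of the 16 libraries in turn gave 5 to 17 calls, with 5 without siRNA late 2-cell replicate 2, 6 without control late 8-cell replicate 1 and 17 without control 4-cell replicate 1. The calls of Pmaip1, Trp53inp1, Apaf1 and Trp53 held throughout.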

How the results depend on the processing

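Of the alternatives for called single-gene values, 1574 kept the direction and the call, 343 lost the call and 3 changed sign. The sign changes all came from limma on log2 FPKM: Btg2 between late and early 8-cell controls at -0.052 with a pseudocount of 1, and with a pseudocount of 0.1 Dram1 at 0.053 for early 8-cell siRNA and at 0.24 between late and early 8-cell controls. Uncalled values gave 977 without a change, 51 calls and 49 that moved. All 3 sign changes involve control early 8-cell embryos, whose replicate 2 FPKM column is the doubtful one. In that group Btg2 averaged 10.5 ± 11.03 FPKM and 8.14 ± 1.99 CPM (SD, n = 2). Dram1 averaged 2.25 ± 2.74 FPKM and 18.3 ± 6.70 CPM there. The cause of these changes was not tested.

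Counts of called members that moved by over 1.5 times were as follows. Without the low-count filter, 1 member was called at the late 2-cell stage, 19 for the difference between stages, 13 for I1394G and 11 for NaCr against siRNA, 11 for NaCr against control and 4 between early 8-cell and 4-cell controls. With DESeq2 size factors that last count was 1, and the DESeq2 Wald test gave 2 there, 17 for early 8-cell siRNA and 18 (likelihood ratio test) for the difference between stages. Limma on log2 FPKM plus 1 gave 5 at the 4-cell stage, 1 at the early 8-cell stage, 6 for the difference between stages, 11 for NaCr against siRNA, 2 each for I1394G and NaCr against control and 8 between late and early 8-cell controls. With a pseudocount of 0.1 these were 5, 2 and 5 for the first 3, 3 for I1394G against siRNA, 2 and 0 against control and 8 between late and early 8-cell controls. Leaving out the doubtful FPKM column, chosen after seeing the data, gave 12 at the early 8-cell stage and 1 between early 8-cell and 4-cell controls. Fitting only the libraries compared gave 5 at the late 2-cell and 2 at the 4-cell stage, and 20 for I1394G and 19 for NaCr against control, while the calls among all genes moved likewise, to 508, 59, 4031 and 2263, from 1, 2494, 527 and 261 with all libraries. At the late 8-cell stage no alternative other than leaving out a library moved the count of 19 by over 1.5 times.

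Leaving out single libraries gave 0 to 0 calls at the late 2-cell stage, 7 to 12 at the 4-cell, 7 to 12 at the early 8-cell and 10 to 17 at the late 8-cell stage, 16 to 25 for the mean of stages, 5 to 17 for the difference between stages, 2 to 6 for I1394G and 0 to 6 for NaCr against siRNA, 0 to 0 between them, 0 to 3 for each against control, and 22 to 25, 0 to 4 and 10 to 12 along control development. Replicate numbers were shared by all groups, and the labels do not say whether they pair libraries. The correlation of same-numbered deviations over 45 pairs of groups lay between -0.0957 and 0.431. Same-numbered libraries of the 4-cell and early 8-cell stages were often closest to each other, and whether they share a batch was not tested. With the number as a replicate block the count between early 8-cell and 4-cell controls was 1, against 0 without, and every other count stayed within 1.5 times. Totals went down to 3.20 M with 2 libraries a group, and members at a few CPM had wide errors, with an SE of 0.74 for Bbc3 at the late 2-cell and 1.05 for Gdf15 at the late 8-cell stage.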

Other observations

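Some members called between siRNA and control at the late 8-cell stage stood far below the late 2-cell level in late 8-cell controls. Mdm4 had 108 and 112 CPM in late 8-cell controls and 3644 and 3977 CPM in late 2-cell controls, and Rrm2b had 10.3 and 13.8 CPM and 323 and 352 CPM. Ercc5 had 17.4 and 16.99 CPM in late 8-cell controls and 135 and 127 CPM in late 2-cell controls, and Gadd45a had 0.359 and 1.05 CPM and 15.1 and 13.7 CPM. In late 8-cell siRNA embryos these genes were above the controls of that stage and below the late 2-cell controls. Bcl2l1 also stood far lower in late 8-cell than in late 2-cell controls, with means of 15.3 and 202 CPM, but went the other way with siRNA. Its mean of 4.43 CPM in late 8-cell siRNA embryos was below the controls of that stage. By contrast Btg2, Ccng1, Trp53inp1, Pmaip1, Phlda3 and Fas were higher in both late 8-cell siRNA libraries than in any control library of any stage. These genes were picked after their values were seen, and no test was made.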
